A study of Homo sapiens with 6 samples.

Results

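Epithelial-mesenchymal transition (EMT) markers were examined in NCI-H460 cells, a cell line from a human large cell lung carcinoma, after knockdown of PRMT5. The set held 10 named genes of the 58825 listed: the epithelial genes CDH1 and EPCAM, the mesenchymal genes CDH2, VIM and FN1, and the transcription factors ZEB1, ZEB2, SNAI1, SNAI2 and TWIST1. Each name matched exactly 1 row. The control cells (NC-shRNA) carried a lentiviral shRNA that the sample labels describe as directed against GFP, and the PRMT5-shRNA cells carried a lentiviral shRNA against PRMT5, with 3 libraries in each group. Both groups were grown in RPMI-1640 and infected with lentivirus, and the methods describe puromycin selection for the stable knockdown cells without naming the control. The paper's results call both the PRMT5 and the control shRNA cells stable. The methods list several PRMT5 hairpins, and the hairpin behind these libraries was not given in the sources used here. The study describes the libraries of a group as biological replicates. The study also tested migration of these cells, and the question here was whether transcripts of EMT markers differed between the groups.

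Epithelial cells hold to their neighbours through E-cadherin and lie on a keratin network. In EMT they lose these contacts, take on vimentin filaments and N-cadherin, deposit fibronectin and become motile. SNAI1, SNAI2, ZEB1, ZEB2 and TWIST1 encode transcription factors that repress CDH1 and other epithelial genes, and ZEB1 and ZEB2 are held down by the miR-200 family of microRNAs in epithelial cells.

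The libraries held 53531257 to 70518401 estimated counts, and counts were scaled to CPM with TMM library factors. PRMT5 was at 143, 127 and 128 CPM with NC-shRNA and at 45.8, 45.6 and 38.3 CPM in PRMT5-shRNA libraries, a log2 fold change (log2FC) of -1.62 (standard error, SE, 0.0943, edgeR adjusted p = 0.0063), the direction its labels give. With the replicate number as a block this value no longer passed (-1.62, edgeR adjusted p = 0.14). Low counts gathered at 4, with 1214 to 1319 genes at exactly that count in each library, so that a count is not read as 1 fragment.

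In both groups FN1 and VIM were the most abundant of the 10 EMT markers, and EPCAM, TWIST1 and CDH1 the least. The pattern was mixed, since the factor TWIST1 stood as low as CDH1 and keratins of epithelial cells were abundant. None of the 10 markers differed between the groups once p was adjusted over all genes (edgeR quasi-likelihood fit, 0.05 level), by which 0.0690% of the 20295 genes tested were called. All 10 passed the filter on low counts. Their adjusted p-values ran from 0.19 to 0.92, and 1 of them, FN1, had an unadjusted p under 0.05, against 12.8% of all genes tested. DESeq2 called 1 marker, FN1, at an adjusted p of 0.024, where it called 530 genes, 3.17% of the 16723 to which it gave an adjusted p. At the looser rule of an unadjusted p under 0.05 with a change over 1.5-fold, no marker was past the threshold, where 3.82% of all genes were.

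The regulatory sequences that tie the ZEB factors to the epithelial state are shown because the genes on both sides were listed among those counted. The mature miR-200 family members fall into 2 seed groups. They are given below 5′ to 3′ from RefSeq (GRCh38.p14), with the seed, bases 2 to 8, in capitals.
hsa-miR-200b-3p: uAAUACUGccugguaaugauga
hsa-miR-200c-3p: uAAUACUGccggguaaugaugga
hsa-miR-429: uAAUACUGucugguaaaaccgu
hsa-miR-200a-3p: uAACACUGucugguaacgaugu
hsa-miR-141-3p: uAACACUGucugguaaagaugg
The genes of miR-200b, miR-200a and miR-429 lie together on the plus strand of chromosome 1, and those of miR-200c and miR-141 on the plus strand of chromosome 12. Their precursors were at 0 counts in all 6 libraries for MIR200A, MIR200B, MIR200C and MIR429, and MIR141 had 1 count in NC-shRNA replicate 3 and 0 elsewhere. The host transcript MIR200CHG had 1, 0 and 0 counts in NC-shRNA and 8, 0 and 0 in PRMT5-shRNA libraries. A count of 0 allows up to 3 counts, 0.0429 to 0.0550 CPM depending on the library, if each count were 1 fragment, and up to 12 counts, 0.172 to 0.220 CPM, if a fragment gave 4 counts. Both limits cover counting error only. Mature microRNAs and their short hairpin precursors are poorly captured by mRNA libraries, so the 0 counts at the MIR genes do not measure either. The counts speak only of longer transcripts such as MIR200CHG.

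Matches to the seeds were sought as CAGTATT and CAGTGTT on the sense strand of the longest annotated 3′ UTR of each protein-coding gene (GENCODE release 29, GRCh38). ZEB1 had 6 CAGTATT and 3 CAGTGTT in 2549 bases, and ZEB2 had 5 and 4 in 5370 bases. Of all 19128 UTRs, 16% held CAGTATT and 18.4% CAGTGTT. Among UTRs within 20% of the length of that of ZEB1, 26% and 29.5% held them, and among those within 20% of ZEB2, 45.7% and 51.7%. These shares are of UTRs with any match. As many matches as ZEB1, or more, were in 0 (CAGTATT) and 16 (CAGTGTT) of the 2382 UTRs near its length. As many as ZEB2, or more, were in 0 and 14 of 1117. The match of each kind nearest the stop codon is shown for both genes on the sense strand, 5′ to 3′, with the letters that pair with the seed in capitals.
ZEB1 at chr10:31527618-31527640, plus strand: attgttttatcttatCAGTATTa
ZEB1 at chr10:31528031-31528053, plus strand: caaaatcatcagaatCAGTGTTt
ZEB2 at chr2:144389052-144389074, minus strand: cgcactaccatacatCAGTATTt
ZEB2 at chr2:144389236-144389258, minus strand: tgcaaaaattttgtaCAGTGTTa
A match is a description of the sequence and does not show that the site was used in these cells.

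Levels of different genes were compared only as FPKM, which the authors scaled for transcript length. In NC-shRNA cells the order was FN1 at 273 ± 30.3 FPKM (SD, n = 3), VIM at 147 ± 5.36, SNAI2 at 5.17 ± 0.317, SNAI1 at 2.53 ± 0.226, ZEB1 at 2.28 ± 0.505, CDH2 at 1.29 ± 0.0723, ZEB2 at 1.05 ± 0.162, EPCAM at 0.5 ± 0.02, TWIST1 at 0.170 ± 0.0608 and CDH1 at 0.137 ± 0.0321. FN1 was the gene at rank 85 and VIM at rank 189 among all genes by mean NC-shRNA FPKM, whereas CDH1 was at rank 19079 among 32052 genes listed above 0 in any library. Neighbours in this order whose ranges overlapped were SNAI1 with ZEB1, and TWIST1 with CDH1. PRMT5-shRNA cells had the same order, with the same overlaps, from FN1 at 361 ± 9.75 FPKM down to CDH1 at 0.197 ± 0.1 (SD, n = 3).

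**Figure D1:**
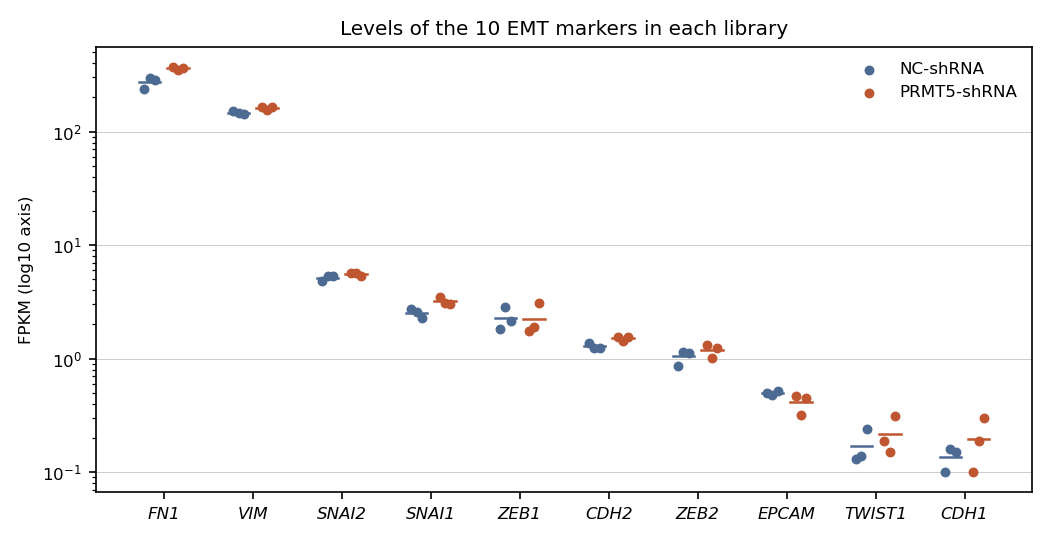
FPKM (log10 axis) of the 10 EMT markers in each of the 3 NC-shRNA (blue) and 3 PRMT5-shRNA (orange) libraries, ordered by the NC-shRNA mean, with a line at each group mean. FN1 and VIM lie above 100 FPKM in every library and EPCAM, TWIST1 and CDH1 below 1.

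The epithelial markers came down to few counts. CDH1, which encodes E-cadherin, the adhesion protein of epithelial contacts (ENSG00000039068, chromosome 16 of GRCh38, 68737225 to 68835548, plus strand), had 51, 84 and 66 counts in NC-shRNA and 40, 92 and 121 in PRMT5-shRNA libraries, or 0.760, 1.21 and 1.06 against 0.733, 1.32 and 2.10 CPM. The lowest and the highest library were both PRMT5-shRNA, and the groups overlapped. Its log2FC was 0.45 (95% interval -0.52 to 1.43, edgeR adjusted p = 0.69), so that neither a 1.5-fold increase nor no change lay outside what these libraries allow.

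EPCAM encodes a surface adhesion molecule of epithelial cells (ENSG00000119888, chromosome 2, 47345158 to 47387601, plus strand). It had 105, 100 and 96 counts in NC-shRNA and 74, 65 and 75 in PRMT5-shRNA libraries, or 1.56, 1.44 and 1.55 against 1.36, 0.929 and 1.3 CPM. The PRMT5-shRNA libraries all lay below the lowest NC-shRNA library, with PRMT5-shRNA replicate 2 the lowest (two-sided exact permutation p = 0.10, below which 3 against 3 libraries cannot go). The log2FC was -0.34 (95% interval -0.89 to 0.20, edgeR adjusted p = 0.58), and without PRMT5-shRNA replicate 2 it was -0.19.

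Of the mesenchymal markers, FN1 had the smallest p of the 10. It encodes fibronectin, a glycoprotein of the extracellular matrix that cells grip through integrins (ENSG00000115414, chromosome 2, 215360440 to 215436172, minus strand). FN1 had 336491, 420913 and 354795 counts in NC-shRNA and 395758, 485894 and 410631 in PRMT5-shRNA libraries, which took between 0.483% and 0.739% of all counts of a library. Scaled, this was 5012, 6072 and 5711 CPM with NC-shRNA and 7251, 6947 and 7139 CPM in PRMT5-shRNA libraries. All 3 PRMT5-shRNA libraries were above all 3 NC-shRNA libraries, and they lay closer together than the NC-shRNA libraries, of which replicate 1 was the lowest (two-sided exact permutation p = 0.10, the smallest p possible). The mean was 5598 ± 539 against 7112 ± 154 CPM (SD, n = 3 each), a log2FC of 0.35 (SE 0.0738, 95% interval 0.17 to 0.52, unadjusted p = 0.0023, edgeR adjusted p = 0.19). The unadjusted difference was 1.27-fold, and the interval did not reach 1.5-fold.

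The DESeq2 test of the same counts gave FN1 a log2FC of 0.34 (DESeq2 adjusted p = 0.024), and over the 18 alternatives tried its adjusted p ran from 0.024 to 0.45. FN1 has a long mRNA, with a longest annotated transcript of 9171 bases, and across 20221 genes, which are not independent replicates, log2FCs were higher for longer transcripts (Spearman's rho 0.136). With a length correction in each library, chosen after seeing the data, the log2FC of FN1 was 0.26 (edgeR adjusted p = 0.15). The same correction took ZEB2 from 0.14 to 0.04, and raised SNAI1 from 0.28 to 0.34 and VIM from 0.09 to 0.11.

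VIM encodes vimentin, the intermediate filament protein of mesenchymal cells (ENSG00000026025, chromosome 10, 17228259 to 17237593, plus strand). VIM was at 965, 890.0 and 863 CPM with NC-shRNA and at 979, 932 and 976 CPM in PRMT5-shRNA libraries. PRMT5-shRNA replicate 2 lay below NC-shRNA replicate 1, so the groups overlapped. The log2FC was 0.09 (95% interval -0.05 to 0.23, edgeR adjusted p = 0.57), the narrowest interval of the 10 markers. On the opposite strand VIM-AS1 had 29 to 61 counts in a library, against 53442 to 65210 for VIM.

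CDH2 encodes N-cadherin, the cadherin gained in the classical cadherin switch (ENSG00000170558, chromosome 18, 27950966 to 28177446, minus strand). CDH2 was at 7.75, 6.85 and 6.74 CPM with NC-shRNA and at 8.21, 7.61 and 8.22 CPM in PRMT5-shRNA libraries. The lowest PRMT5-shRNA library was under the highest NC-shRNA library, with a log2FC of 0.17 (95% interval -0.11 to 0.45, edgeR adjusted p = 0.59).

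**Figure D2:**
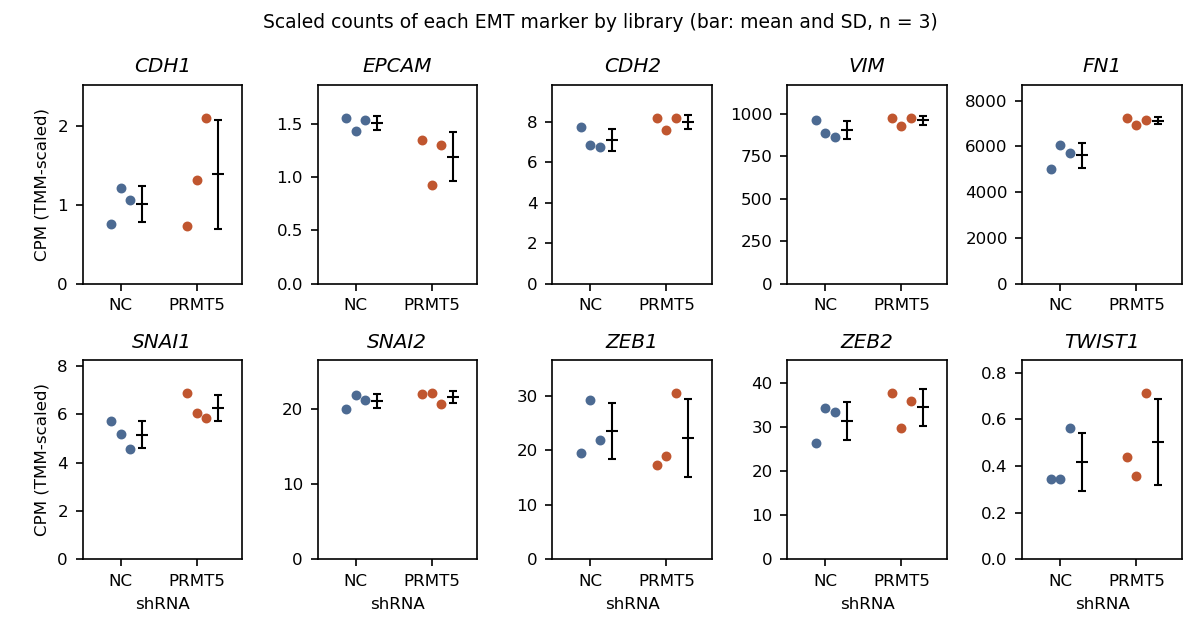
TMM-scaled CPM of each EMT marker in the 3 NC-shRNA (blue) and 3 PRMT5-shRNA (orange) libraries, each panel on its own linear axis from 0, with the mean and SD (n = 3) beside the points. The groups do not overlap for FN1 and SNAI1, higher in PRMT5-shRNA, and EPCAM, lower.

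Among the transcription factors, SNAI1 encodes Snail, a zinc finger repressor of CDH1 (ENSG00000124216, chromosome 20, 49982999 to 49988886, plus strand). SNAI1 was at 5.70, 5.19 and 4.57 CPM with NC-shRNA and at 6.87, 6.06 and 5.86 CPM in PRMT5-shRNA libraries. The PRMT5-shRNA libraries all lay above the highest NC-shRNA library (two-sided exact permutation p = 0.10, the smallest p possible). Its log2FC of 0.28 (95% interval -0.06 to 0.62) had an edgeR adjusted p of 0.46.

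SNAI2, which encodes the related repressor Slug (ENSG00000019549, chromosome 8, 48917604 to 48921740, minus strand), was the most abundant of the 5 factors by FPKM. Its means were 5.17 FPKM with NC-shRNA and 5.54 FPKM with PRMT5-shRNA. In CPM, which is not scaled for length, ZEB2 was higher in every library. SNAI2 stood at 20.0, 21.8 and 21.1 CPM with NC-shRNA and at 22, 22.1 and 20.7 CPM in PRMT5-shRNA libraries. The groups overlapped, with a log2FC of 0.04 (95% interval -0.16 to 0.24, edgeR adjusted p = 0.88).

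ZEB1, which encodes a repressor with zinc fingers and a homeodomain (ENSG00000148516, chromosome 10, 31318495 to 31529814, plus strand), varied widely within each group. It was at 19.5, 29.3 and 21.8 CPM with NC-shRNA and at 17.3, 18.9 and 30.5 CPM in PRMT5-shRNA libraries. NC-shRNA replicate 2 and PRMT5-shRNA replicate 3 stood above the other 4 libraries, which lay between 17.3 and 21.8 CPM. The log2FC of -0.08 (95% interval -0.67 to 0.51, edgeR adjusted p = 0.92) turned positive when NC-shRNA replicate 2 (0.11), PRMT5-shRNA replicate 1 (0.07) or PRMT5-shRNA replicate 2 (0.02) was left out. ZEB1-AS1, on the opposite strand, had 269 to 354 counts against 943 to 2029 for ZEB1, and how the authors' counting treated strand is not given in the sources used here.

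ZEB2, the paralogue of ZEB1 (ENSG00000169554, chromosome 2, 144364364 to 144524583, minus strand), was at 26.3, 34.3 and 33.3 CPM with NC-shRNA and at 37.6, 29.7 and 35.9 CPM in PRMT5-shRNA libraries. The groups overlapped, with a log2FC of 0.14 (95% interval -0.19 to 0.46, edgeR adjusted p = 0.72). TWIST1, which encodes a basic helix-loop-helix factor (ENSG00000122691, chromosome 7, 19020991 to 19117672, minus strand), rested on 23, 24 and 35 counts in NC-shRNA and 24, 25 and 41 in PRMT5-shRNA libraries. Its log2FC was 0.27 (95% interval -0.78 to 1.31, edgeR adjusted p = 0.84), and without PRMT5-shRNA replicate 3 it was -0.07.

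Taken over the 10 markers, 8 log2FCs were above 0 and 2 below, where 10385 of the 20295 genes tested were above 0. The median of the markers was 0.15 and that of all genes tested 0.01. The 95% interval of FN1 lay above 0, and the interval of each other marker included 0. In CPM the groups did not overlap for 3 markers of 10, FN1 and SNAI1 higher and EPCAM lower, against 21.7% of all genes tested, 11.0% higher and 10.7% lower. On the FPKM scale VIM and CDH2 were also apart, so that 4 markers were higher and 1 lower, against 21.3% of the same genes, 14.7% higher and 6.59% lower. VIM was at 143 to 153 FPKM with NC-shRNA and 156 to 166 FPKM with PRMT5-shRNA, and CDH2 at 1.24 to 1.37 and 1.42 to 1.56 FPKM. For 5 markers, CDH2, VIM, FN1, ZEB2 and SNAI2, the 95% interval lay inside 1.5-fold in either direction, and for the other 5 it reached past it.

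**Figure D3:**
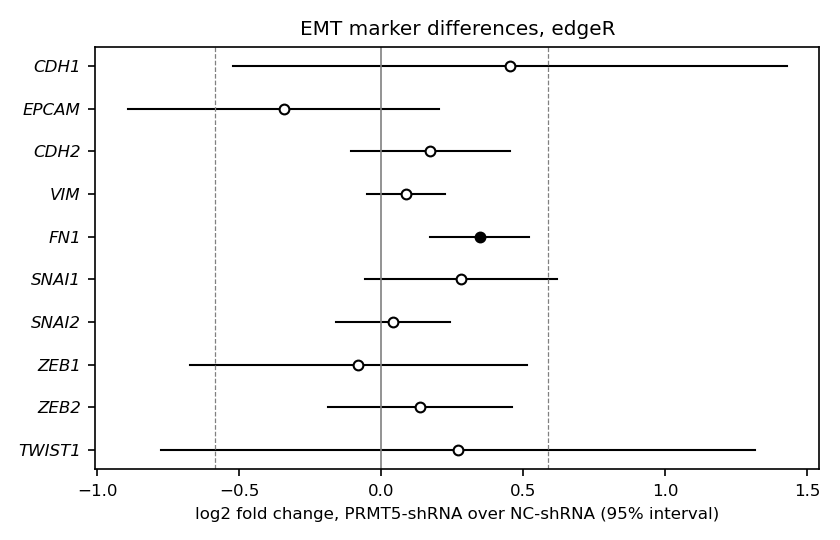
Log2 fold change of each EMT marker, PRMT5-shRNA over NC-shRNA, with the 95% interval from edgeR's quasi-likelihood fit (3 libraries a group). The filled point, FN1 at 0.35, is the marker with an unadjusted p under 0.05, and the dashed lines mark 1.5-fold in each direction, which the intervals of CDH1, EPCAM, SNAI1, ZEB1 and TWIST1 cross.

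Ratios between mesenchymal and epithelial markers within a library are given as values without a test. The log2 ratio of VIM to CDH1 FPKM was 10.58, 9.82 and 9.89 in NC-shRNA and 10.69, 9.68 and 9.11 in PRMT5-shRNA libraries. The log2 ratio of CDH2 to CDH1 was 3.78, 2.95 and 3.06 against 3.95, 2.90 and 2.38, and that of ZEB1 to CDH1 4.2, 4.14 and 3.85 against 4.12, 3.31 and 3.36. In linear terms VIM was 553 to 1654 times and CDH2 5.20 to 15.5 times CDH1. CDH1 rested on 40 to 121 counts, at 0.1 to 0.3 FPKM, so these ratios are imprecise. Both were lowest in PRMT5-shRNA replicate 3, the library with the most CDH1, by which they are divided.

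The cadherins on the lists were compared as FPKM to place CDH1 and CDH2. CDH11, which encodes a cadherin of mesenchymal cells, was the most abundant, at 28.9, 34.1 and 34.2 FPKM in NC-shRNA and 47.3, 45.3 and 47.8 FPKM in PRMT5-shRNA libraries. All 3 PRMT5-shRNA libraries were above all NC-shRNA libraries, with a log2FC in counts of 0.47 (SE 0.0660, unadjusted p = 1.96e-04, edgeR adjusted p = 0.10). CDH5 was at 1.31 to 1.48 FPKM with NC-shRNA and 1.63 to 2.02 with PRMT5-shRNA, CDH4 at 0.410 to 0.620 in all 6 libraries, CDH3 at 0.240 to 0.330 and CDH6 at no more than 0.01. CDH2 was thus well below CDH11 and CDH1 below every other cadherin here except CDH6 in its mean.

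**Figure D4:**
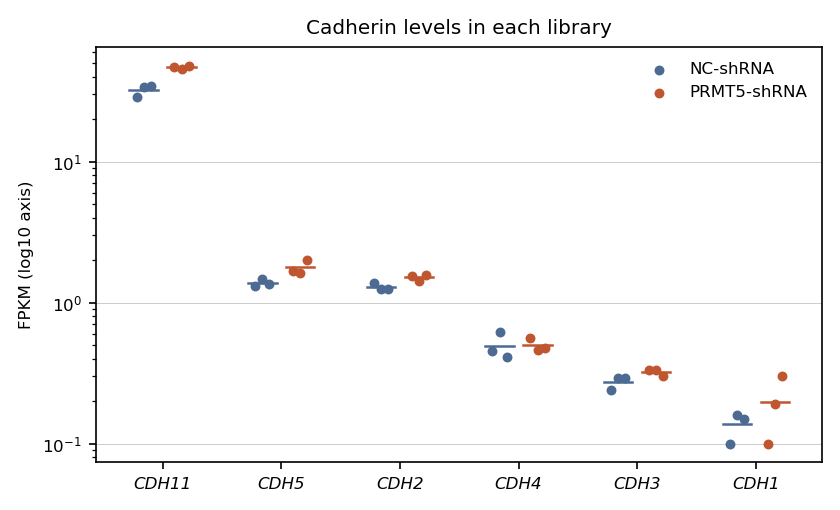
FPKM (log10 axis) of 6 cadherin genes in each of the 3 NC-shRNA (blue) and 3 PRMT5-shRNA (orange) libraries, with a line at each group mean. CDH11 lies between 28.9 and 47.8 FPKM, above CDH5 and CDH2 at 1.24 to 2.02, and CDH1 lies lowest in mean.

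Other genes of the epithelial and mesenchymal programs were counted in lists written from general knowledge. Of 28 epithelial genes, 24 passed the count filter, at a median log2FC of -0.04. By edgeR none reached the 0.05 level after adjustment, 4 had an unadjusted p under 0.05, 1 higher and 3 lower, against 12.8% of all genes tested, and 1, CRB3, was lower past the looser rule, against 1.29% of all genes lower and 2.53% higher. CRB3, a polarity protein of the apical membrane, was at 2.36 ± 0.294 CPM with NC-shRNA and 1.57 ± 0.112 with PRMT5-shRNA (SD, n = 3 each), a log2FC of -0.59 (edgeR adjusted p = 0.30). The most abundant were the keratins of simple epithelia, KRT18 at 151 ± 12.5 and 135 ± 13.8 FPKM, KRT8 at 110.0 ± 2.46 and 98.0 ± 5.70 FPKM and KRT7 at 51.6 ± 8.29 and 52.8 ± 11.4 FPKM in NC-shRNA and PRMT5-shRNA cells (SD, n = 3 each). KRT8, at a log2FC of -0.23, had an edgeR adjusted p of 0.25, KRT18, at -0.23, of 0.40 and KRT7, at -0.02, of 0.97. These keratins were thus abundant in both groups while CDH1 and EPCAM were under 1 FPKM.

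Of 26 mesenchymal genes, 25 were tested, with a median log2FC of 0.10. By edgeR none reached the 0.05 level after adjustment, 11 had an unadjusted p under 0.05, 9 higher and 2 lower, against 12.8% of all genes tested, and 3, all higher, were past the looser rule, against 2.53% of all genes. AXL, a receptor tyrosine kinase, was at 11.5 ± 1.3 CPM with NC-shRNA and 17.7 ± 2.95 with PRMT5-shRNA (SD, n = 3 each), a log2FC of 0.61 (edgeR adjusted p = 0.22). SPARC, a matrix glycoprotein, had 8, 14 and 0 counts in NC-shRNA and 53, 56 and 67 in PRMT5-shRNA libraries (edgeR adjusted p = 0.25). MMP14, a membrane-bound collagenase, had 14, 24 and 7 counts against 45, 36 and 54 (edgeR adjusted p = 0.27). S100A4 at 112 ± 9.59 and 119 ± 13.9 FPKM and TGFBI at 104 ± 1.25 and 104 ± 12.2 FPKM were the most abundant (SD, n = 3 each), with edgeR adjusted p-values of 0.96 and 0.79.

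Of 20 other EMT transcription factors, all were tested, with a median log2FC of 0.17 and none past either rule in edgeR's test, where 3 had an unadjusted p under 0.05, against 12.8% of all genes. The most abundant were ID1 at 87.8 ± 4.32 and 85.4 ± 4.41 FPKM, ID3 at 57.6 ± 3.27 and 57.9 ± 3.29 FPKM and YAP1 at 18.1 ± 2.94 and 23.0 ± 1.61 FPKM in NC-shRNA and PRMT5-shRNA cells (SD, n = 3 each). ID1 and ID3 encode inhibitors of basic helix-loop-helix factors, and YAP1 a coactivator of the Hippo pathway. Their edgeR adjusted p-values were 0.60, 0.80 and 0.42.

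Of 18 genes of cell junctions and cadherin partners, 17 were tested, with a median log2FC of -0.12 and none past either rule in edgeR's test, where 2 had an unadjusted p under 0.05, against the same 12.8%. RHOA, a GTPase of the actin cytoskeleton, was at 183 ± 15.7 and 172 ± 2.46 FPKM, RAC1, a GTPase of lamellipodia, at 104 ± 2.97 and 103 ± 1.11 FPKM, and ACTN4, an actin crosslinker, at 62.4 ± 2.92 and 64.4 ± 3.59 FPKM (SD, n = 3 each, edgeR adjusted p = 0.39, 0.59 and 0.94). Of 15 TGF-beta signalling genes with a row, all were tested, with a median of 0.11 and none past either rule in edgeR's test, where 1 had an unadjusted p under 0.05, against 12.8% of all genes. The receptor gene TGFBR2 was at 16.8 ± 1.38 and 19.4 ± 0.516 FPKM and LTBP1, which encodes a latency protein of TGF-beta, at 6.13 ± 0.234 and 7.05 ± 0.135 FPKM (SD, n = 3 each, edgeR adjusted p = 0.40 and 0.39). TGFBR1 had 10694, 4510 and 4133 counts in NC-shRNA and 7935, 4538 and 10116 in PRMT5-shRNA libraries, so libraries of both groups stood near either level (edgeR adjusted p = 0.76).

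**Figure D5:**
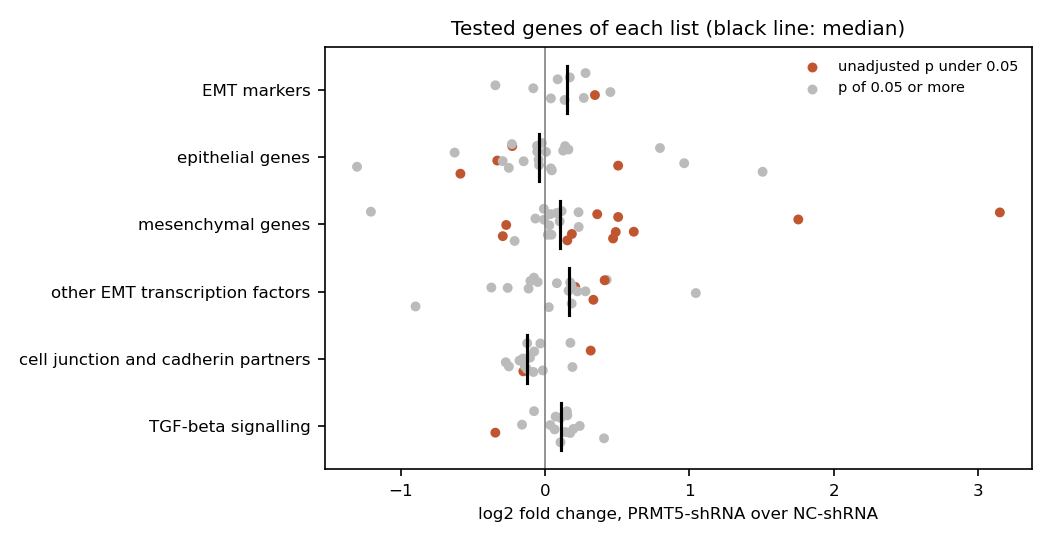
Log2 fold change, PRMT5-shRNA over NC-shRNA (3 libraries a group), of the tested genes of 6 lists, with a black line at each median and vertical jitter only for display. Orange points have an unadjusted p under 0.05, 1 of 10 EMT markers and 11 of 25 mesenchymal genes, and no gene shown passed an adjusted p of 0.05.

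VIM, FN1 and several genes of the mesenchymal list are also expressed by fibroblasts and endothelial cells. In bulk RNA fewer cells of a type and less RNA per cell cannot be told apart. These libraries came from a cultured cell line, and the sources describe no other cell type in them. Markers of other cell types were counted as a description of the line. Of 8 fibroblast markers, COL1A2 and PDGFRA were at 0 counts in every library, and the summed level was 10.5 to 11.6 FPKM with NC-shRNA and 10.4 to 12.7 with PRMT5-shRNA. Of the 6 tested, 2 had an unadjusted p under 0.05, both higher, against 12.8% of all genes. COL3A1, a fibrillar collagen gene, was the 1 fibroblast marker past the looser rule, at 7.95 ± 0.678 and 14.5 ± 1.59 CPM (SD, n = 3 each), a log2FC of 0.87 (edgeR adjusted p = 0.11). The other was PDGFRB, named after its values were seen, at 3.90 ± 0.419 and 5.80 ± 0.453 CPM without overlap, a log2FC of 0.57 (edgeR adjusted p = 0.23). DCN was at 6.46 ± 0.773 and 5.70 ± 0.611 FPKM and LUM at 1.84 ± 0.373 and 2.20 ± 0.427 FPKM (SD, n = 3 each).

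Of 9 endothelial markers, 6 were tested, 4 had an unadjusted p under 0.05, all higher, against 12.8% of all genes, and 3 were past the looser rule, against 2.53% of all genes higher. Their summed level was 1.87 to 2.01 FPKM with NC-shRNA and 2.52 to 3.08 with PRMT5-shRNA. VWF was at 0 counts throughout NC-shRNA and at 128, 105 and 122 counts after PRMT5 shRNA (edgeR adjusted p = 0.034), a call lost under 8 of 14 alternatives, among them the replicate block (edgeR adjusted p = 0.37) and 5 of the 6 fits lacking a library, with adjusted p from 4.5e-11 to 0.37. KDR was at 0 throughout NC-shRNA and at 12, 22 and 26 counts, and PECAM1 was at 30, 5 and 8 against 104, 100 and 109 counts. CDH5, which made up most of the summed level, was at 1.38 ± 0.0889 and 1.78 ± 0.212 FPKM without overlap, a log2FC of 0.30 (edgeR adjusted p = 0.38). ERG, at 0.427 ± 0.0643 and 0.453 ± 0.0351 FPKM, and TEK, at 0.107 ± 0.0153 and 0.113 ± 0.0666 FPKM (SD, n = 3 each), had edgeR adjusted p-values of 0.95 and 0.99. Whether RNA of any cells other than the line entered the mesenchymal values was not tested. For comparison of levels, FN1 alone stood at 273 and 361 FPKM in the means of NC-shRNA and PRMT5-shRNA cells.

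Of 8 blood cell markers, 4 were tested and none was past either rule in edgeR's test, where 0 had an unadjusted p under 0.05. CD68 was at 6.07 ± 0.986 and 5.34 ± 0.413 FPKM, CD14 at 0.757 ± 0.0929 and 1.15 ± 0.403, and CD4 at 0.0267 ± 0.0231 and 0.0567 ± 0.0208 FPKM (SD, n = 3 each), with CD3E at 0 counts in every library and PTPRC at 0 counts except for 8 and 10 in PRMT5-shRNA replicates 1 and 2. The labels describe the cells as lung adenocarcinoma. Of 9 lung lineage markers SFTPA1, SCGB1A1 and FOXJ1 were at 0 counts in every library, NKX2-1 had at most 16 counts, SFTPC at most 49 and TP63 48 to 153, and the summed level of the list was at most 0.480 FPKM. None of its 2 tested genes had an unadjusted p under 0.05 in edgeR's test.

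The genes with the most similar profile across the 6 libraries were sought for CDH1, CDH2, VIM and FN1 by the root mean square difference of centred log2 CPM, as a description. Nearest to FN1 were SASH1 (0.0125), MKLN1-AS (0.0281) and GLI3 (0.0355), and nearest to VIM were SCAP (0.0177), IFT22 (0.0203) and PSAP (0.0261). Nearest to CDH2 were RPAIN (0.0172), CDK5 (0.0300) and AL133467 (0.0307). CDH1, measured on few counts, had no profile as near, with CFAP53 at 0.134, HAR1A at 0.147 and FBXW4P1 at 0.152. None of these was another EMT marker.

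E-boxes of the kind bound by Snail and ZEB factors, CACCTG and its reverse complement CAGGTG, were counted in RefSeq promoter windows of 300 bases (GRCh38.p14). Of the markers, 5 matched a window: ZEB1, ZEB2, CDH2, VIM and FN1, with 12 windows in all, most of them of ZEB1. CDH1, EPCAM, SNAI1, SNAI2 and TWIST1 had no window, so the promoters of the epithelial markers were not examined. An E-box was present in 2 of these windows, both of ZEB1, against 20.6% of all 35116 windows. The window of ZEB1 from 31318966 to 31319265 on chromosome 10 held 3, and that from 31318167 to 31318466 held 1.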

How the data were processed

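RNA of NCI-H460 cells was sequenced as stranded mRNA libraries, 3 NC-shRNA and 3 PRMT5-shRNA. Per the labels, the submitters' processing notes name cutadapt 1.9, HISAT2 2.0.4, StringTie 1.3.4d and GRCh38, while the paper's methods name a mouse assembly. The authors deposited estimated counts by gene, already whole, and FPKM values scaled for length and depth. The annotation and strand setting of the counting are not given in the sources used here. Of 58825 gene identifiers, 58552 were found in GENCODE release 29.

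Counts were TMM-scaled and filtered (filterByExpr by group), and 20295 genes were tested with edgeR 4.0.16 (R 4.3.3), quasi-likelihood test, Benjamini-Hochberg adjustment over all genes tested. The intervals use standard errors derived from the F statistic. Single genes had exact two-sided permutation tests, which with 3 against 3 cannot go below 0.10. Total counts were 53531257 to 70518401, and depth limits CDH1, EPCAM and TWIST1 most. No 2 libraries agreed within sampling noise (lowest chi-square per degree of freedom 41.1 over 15 pairs). Alternatives were other normalizations, filters, DESeq2 1.42.0, limma 3.58.1 and a linear model per gene on log2 FPKM (pseudocount 1 or 0.1, minimum mean FPKM 0.5), a block for replicate number and fits lacking 1 library each.

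The markers and lists were chosen with earlier results of these data known. Named list genes were those past an adjusted p of 0.05, up to 3 with the smallest p past p under 0.05 and 1.5-fold, and the 3 with the highest FPKM, and the 3 nearest profiles of CDH1, CDH2, VIM and FN1. Fold changes of list genes are those of edgeR. 1 TGF-beta list gene was not analysed here.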

Additional observations from a re-analysis of the deposited data

How the results depend on the processing

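The 10 markers and PRMT5 were refitted under 18 alternatives, of which the length correction and the division of counts by 4 were chosen after seeing the data. CDH2, VIM, FN1, ZEB2, SNAI1 and SNAI2 kept their direction in all 18, and CDH1 and EPCAM in the 14 that tested them. FN1 ranged from 0.26 to 0.41 (log2), SNAI1 from 0.20 to 0.36, VIM from 0.05 to 0.15, CDH2 from 0.13 to 0.24, EPCAM from -0.44 to -0.09 and CDH1 from 0.02 to 0.75, where CDH1 was lowest without PRMT5-shRNA replicate 3. The ranges take in fits on log2 FPKM as well as on counts. The -0.09 of EPCAM was on log2(FPKM + 1), where the pseudocount makes changes of genes at low FPKM smaller. On counts the weakest EPCAM value was -0.19, without PRMT5-shRNA replicate 2. ZEB2 ranged from 0.02 to 0.23 and SNAI2 from 0.0051 to 0.099, both lowest without NC-shRNA replicate 1. ZEB1 turned from -0.08 to 0.11, 0.07 and 0.02 without NC-shRNA replicate 2, PRMT5-shRNA replicate 1 or PRMT5-shRNA replicate 2, and TWIST1 from 0.27 to -0.07 without PRMT5-shRNA replicate 3. With 1 library left out at a time, ZEB1 ranged from -0.38 to 0.11 and TWIST1 from -0.067 to 0.54. The causes were not tested.

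With DESeq2 1 marker, FN1, passed an adjusted p of 0.05, higher, and none under any other alternative. PRMT5 ranged from -1.66 to -1.49 and lost its call with the linear model per gene (-1.49) and the replicate block (-1.62). The block, which gave FN1 a log2FC of 0.35 (edgeR adjusted p = 0.37), left 0 of all genes called, against 14 as reported, 530 with DESeq2, 5 with limma on log2(FPKM + 1) without the filter, 2 with the linear model, 23 with length correction and 8 to 25 with a library left out. At an unadjusted p under 0.05 the block gave 2382 genes. Same-numbered libraries did not deviate together (correlations across genes 0.0012, -0.039 and 0.064), so the numbers were not taken as pairs. The block changed no other call of a marker.

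By the rule of p under 0.05 and 1.5-fold, 2.53% of all genes tested were higher and 1.29% lower. Of the 5 other EMT lists, with 24, 25, 20, 17 and 15 genes tested, 3 genes were higher and 1 lower by it. The 3 became 0 with limma on log2(FPKM + 1), with or without the filter, and with the linear model, and 1 with limma on log2(FPKM + 0.1) and with a mean of at least 100 counts, which leaves out SPARC and MMP14. The 1 became 0 under those 5 and under upper quartile factors, the length correction and counts divided by 4, and leaving out a library gave 0 to 2 lower (0 without NC-shRNA replicate 3, 2 without NC-shRNA replicate 2) and 2 to 4 higher. On FPKM, 3 markers, FN1, VIM and SNAI1, had an unadjusted p under 0.05 with limma, where 2298 to 3085 of all genes did. The linear model gave 4, with CDH2 added, where 2165 of all genes did, and all of these markers were higher. The median log2FC of all genes was 0.04 on log2(FPKM + 1) with the filter, against 0.01 in edgeR. In edgeR 1 marker was under 0.05 as reported, where 2605 genes were. It gave 2 markers with the length correction (2628 genes) and 2 without NC-shRNA replicate 1 (2087 genes).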

Other observations

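In the lists, 2 genes outside the rule for named genes stood out for a split within the PRMT5-shRNA libraries and were chosen with their values in view. CLDN4, which encodes a tight junction protein, had 1029, 935 and 776 counts in NC-shRNA and 809, 14 and 103 in PRMT5-shRNA libraries (edgeR adjusted p = 0.68). FOXC1, a forkhead factor, had 3051, 3473 and 2900 counts in NC-shRNA and 2970, 840 and 3021 in PRMT5-shRNA libraries (edgeR adjusted p = 0.86).

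CLDN1, another tight junction gene, also outside the rule and picked after its values were seen, had 1869, 1985 and 1822 counts in NC-shRNA and 2287, 2589 and 2470 in PRMT5-shRNA libraries, a log2FC of 0.51 (edgeR adjusted p = 0.14).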
